A study of Mus musculus with 4 samples.

Results

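Iron and heme handling genes were followed in large peritoneal macrophages (LPMs), which reside in the peritoneal cavity. The group was a list of 10 genes covering iron uptake, export, storage and sensing and the breakdown of heme, taken by symbol from the normalised expression table. Of these 10 genes, 9 were among the 18364 genes of the table, and the iron exporter *Slc40a1* (ferroportin) was not analysed here. LPMs were double-sorted as F4/80+ MHCII-negative CD102+ cells from C57BL/6 mice aged 8 weeks, and their RNA was sequenced in bulk from low-input libraries. The labels name 2 libraries as wild type (WT) and 2 as *Rxra*-/- (Rxra-KO). By the methods of the study, *Rxra*, which encodes the nuclear receptor RXRα, was deleted with a Cre recombinase driven by the LysM (*Lyz2*) locus, which is active in myeloid cells and not in macrophages alone, in mice with floxed *Rxra* alleles (*LysM* Cre+ *Rxra* fl/fl), and Cre-negative *Rxra* fl/fl littermates were the controls. The comparison asked which of these genes differed in level between LPMs of the 2 labels.

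Cells take up iron mainly as transferrin-bound ferric iron through the transferrin receptor, store it in ferritin and release it through ferroportin. Macrophages also obtain iron from heme, which heme oxygenase opens into biliverdin, carbon monoxide and ferrous iron. In most cells the balance is set after transcription, when the iron regulatory proteins IRP1 and IRP2 bind hairpins called iron-responsive elements in the untranslated regions of target mRNAs. When iron is scarce, IRP binding in the 3′ untranslated region protects the transferrin receptor mRNA from decay, whereas binding in the 5′ untranslated region holds back translation of ferritin and ferroportin mRNA.

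Transcripts of the 10 genes in GENCODE M21 (mouse build GRCm38), matched by symbol, were searched for a strict form of such hairpins. The pattern was an unpaired C, 5 bases that pair across the loop with G–T pairs allowed, and the 6-base loop CAGTGN with A, C or T as its last base. A match was found in the transcripts of 4 of the 10 genes, with 7 sites in all, against 222 of 21877 protein-coding genes (1.015%). The sequences below are the 29-base sites, 5′ to 3′ on the transcript strand, with the unpaired C and the loop in capitals. A match describes these letters only.
Tfrc 3′ UTR site 1, chr16:32631219-32631247, plus strand: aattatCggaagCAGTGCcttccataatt
Tfrc 3′ UTR site 2, chr16:32631598-32631626, plus strand: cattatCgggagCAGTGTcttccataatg
Tfrc 3′ UTR site 3, chr16:32631663-32631691, plus strand: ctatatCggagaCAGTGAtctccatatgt
Tfrc 3′ UTR site 4, chr16:32631710-32631738, plus strand: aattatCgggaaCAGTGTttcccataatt
Fth1 5′ UTR, chr19:9982732-9982760, plus strand: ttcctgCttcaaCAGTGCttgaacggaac
Ftl1 5′ UTR, chr7:45459779-45459807, minus strand: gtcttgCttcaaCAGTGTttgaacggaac
Slc40a1 5′ UTR, chr1:45925465-45925493, minus strand: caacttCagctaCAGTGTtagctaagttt

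The 4 *Tfrc* sites lay in the 3′ untranslated region, and the *Fth1*, *Ftl1* and *Slc40a1* sites lay in the 5′ untranslated region. No match was found in *Slc11a1*, *Slc11a2*, *Aco1*, *Ireb2*, *Hmox1* or *Blvrb*. The pattern misses any element with a bulge or an unpaired base in its upper stem or with another loop. A gene without a match may therefore still carry an element, and a gene with matches may carry more.

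Reads per library were recovered from the normalised values and ranged from 629030 to 1047021, with 1 read worth a normalised count between 0.993 and 1.51 and a median of 7 to 11 reads per gene. The targeted gene went against its label. For *Rxra*, 20 and 28 reads were found in WT, against 33 and 77 in the libraries labelled Rxra-KO, a log2 difference of 0.99 that was not called (limma adjusted p = 0.183). The table counts reads over a whole gene, so reads outside the deleted part check nothing about the deletion, and the groups are given below by their labels. *Lyz2*, the locus that carries the Cre, fell from 9420 and 10684 reads to 4241 and 6272. *Xist* and 4 Y-linked genes had between 8 and 66 reads in every library. The labels do not say that replicates came from separate mice, so p-values measure the spread between these samples only. The study excluded RNA-seq samples that did not cluster with their group.

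Two-sided tests were made with limma on log2(normalised count + 1) over all 18364 genes, with Benjamini-Hochberg adjustment. A call needed an adjusted p under 0.05 and a log2 fold change of 0.6 or more in either direction. All 9 genes had a mean of at least 10 reads. The transferrin receptor gene *Tfrc* and the heme oxygenase gene *Hmox1* were called higher under the Rxra-KO label, and 0 of 9 were called lower by limma, edgeR, DESeq2 or voom (0 of 9 lower at an unadjusted limma p under 0.05), against 0.969% of all genes and 1.92% of those with a mean of at least 10 reads. These 2 of 9 genes (22.2%) stood against 1.32% of all genes called higher and 2.68% of the 8850 genes with a mean of at least 10 reads. In 6 of the 9 genes both libraries labelled Rxra-KO lay above both WT libraries, which held for 18.8% of all genes and for 22.7% of those with at least 10 reads. In the other 3 genes the groups overlapped. The log2 fold change was positive in 7 of the 9 genes, as in 51.1% of all genes and 52.3% of those with at least 10 reads. The median log2 fold change of the 9 genes was 0.39, and that of all genes was 0.02.

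**Figure D1:**
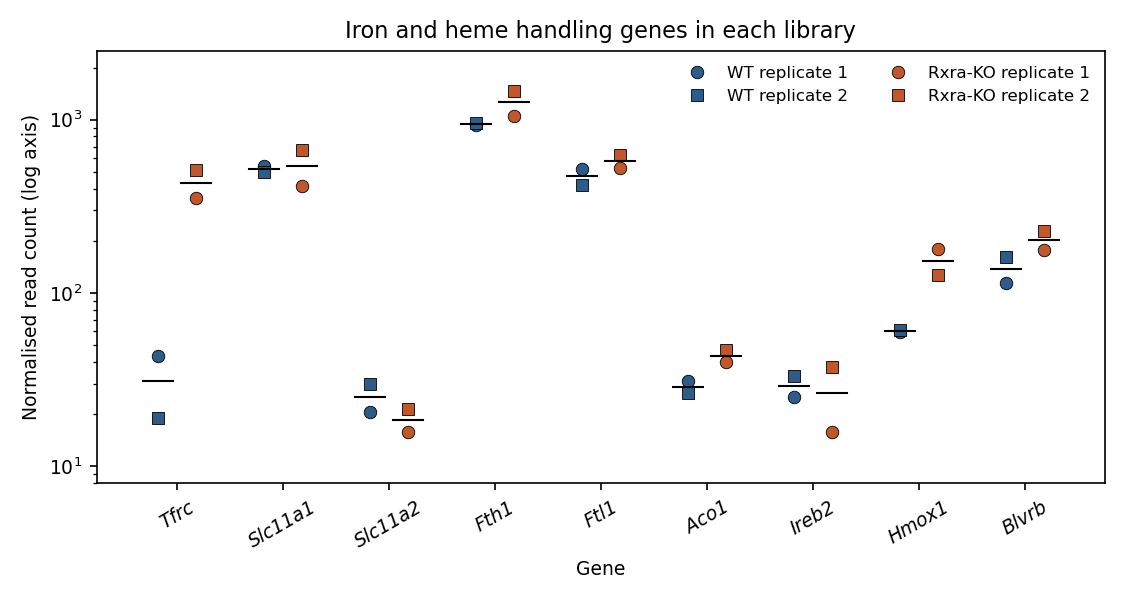
Normalised read counts (log axis) of the 9 genes in each of the 4 libraries, WT in blue and the libraries labelled Rxra-KO in orange, with circles for replicate 1, squares for replicate 2 and a line at each group mean. *Tfrc* lies at 43.2 and 19.0 in WT and at 352 and 514 in the other group, and *Hmox1* at 59.8 and 61.3 against 178 and 127, whereas *Slc11a1*, *Slc11a2* and *Ireb2* overlap.

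*Tfrc*, which encodes transferrin receptor 1, the main entry route for transferrin-bound iron, had the largest difference of the 9 genes. Its normalised count was 43.2 and 19.0 in WT replicates 1 and 2 and 352 and 514 in the libraries labelled Rxra-KO replicates 1 and 2. Those counts were 28, 17, 233 and 517 reads in the same order. The groups were far apart, although the WT libraries themselves differed by more than the smaller of their values. Means were 31.1 ± 17.1 in WT and 433 ± 115 in the libraries labelled Rxra-KO (SD, n = 2 each), a ratio of 13.9. On the log2 scale the difference was 3.84, with a standard error of 0.28 and a 95% interval of 3.28 to 4.40 (limma adjusted p = 7.84e-28). Among 18364 genes, *Tfrc* stood at rank 21 by log2 fold change, counted from the highest, and at rank 13 by p. The study had already listed *Tfrc* as raised from the same libraries, so this call repeats its result. In bulk RNA, a different share of cells of a type and a different amount of RNA per cell cannot be told apart. The gene lies at chr16:32608920-32632794 on the plus strand of GRCm38, and its transcript shared none of its 31-base words with another gene.

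Divalent metal transporters can also carry iron across membranes. They include NRAMP1, encoded by *Slc11a1* and described in the phagosomes of macrophages, and DMT1, encoded by *Slc11a2* and described in endosomes. The values below are of mRNA only. Whether mice of this strain make a working NRAMP1 protein was not tested, so the *Slc11a1* values do not show iron transport in these cells. *Slc11a1* had normalised counts of 541 and 498 in WT and 415 and 670 in the libraries labelled Rxra-KO. Both WT values fell between the 2 others, and the spread within the second group (SD 180) exceeded the difference of the means. The log2 fold change was 0.02 (95% interval -0.42 to 0.46, limma adjusted p = 0.994), and leaving out 1 library at a time moved it from -0.32 to 0.37. *Slc11a2* was low, at 13 and 27 reads (WT) against 10 and 21 in the libraries labelled Rxra-KO. Its normalised counts of 20.4, 29.8, 15.8 and 21.4 overlapped between groups, with a log2 fold change of -0.41 (95% interval -1.35 to 0.54, limma adjusted p = 0.896). Differences of *Slc11a2* within that interval were not excluded, with 2 libraries per group and few reads. The 3 transporter mRNAs thus differed widely in their values, with *Tfrc* alone called.

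Ferritin, the iron storage shell, is built from a heavy chain with ferroxidase activity, encoded by *Fth1*, and a light chain, encoded by *Ftl1*. *Fth1* had normalised counts of 938 and 956 in WT and 1044 and 1470 in the libraries labelled Rxra-KO. The groups did not overlap, but the lower of the second pair stood close to WT. A log2 fold change of 0.39, standard error 0.22 (95% interval -0.037 to 0.81), was not called (limma adjusted p = 0.571). *Ftl1* had normalised counts of 520 and 420 in WT and 525 and 623 in the libraries labelled Rxra-KO, so that WT replicate 1 and Rxra-KO replicate 1 nearly coincided. Its log2 fold change was 0.29 (95% interval -0.15 to 0.73, limma adjusted p = 0.763). The value of *Ftl1* is uncertain, because 94.9% of the 31-base words of its transcript also occur in 33 other annotated genes, among them *Ftl1-ps1* and *Ftl2-ps*. For *Fth1* that share was 7.92%, with 3 genes.

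The ratio of the heavy to the light chain varied as much within groups as between them. There were 180 and 228 *Fth1* reads per 100 *Ftl1* reads in WT and 199 and 236 in the libraries labelled Rxra-KO. By contrast, *Tfrc* reads per 100 *Fth1* reads were 4.52 and 1.93 in WT and 33.6 and 34.9 in the libraries labelled Rxra-KO. Receptor reads per 100 reads of *Slc11a1* were 7.84 and 3.70 against 84.7 and 76.7. Both ratios with *Tfrc* therefore separated the groups within each library, without use of the scaling between libraries.

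*Aco1* encodes IRP1, which is the cytosolic aconitase when it holds an iron-sulfur cluster and binds RNA when it does not, and *Ireb2* encodes IRP2, which is degraded when iron is plentiful. *Aco1* had normalised counts of 31.04 and 26.6 in WT and 39.9 and 47.2 in the libraries labelled Rxra-KO, from 20 to 47 reads. Its groups did not overlap, and its log2 fold change of 0.58 with a standard error of 0.39 was not called (95% interval -0.19 to 1.35, limma adjusted p = 0.699). *Ireb2* had 24.98 and 33.1 in WT and 15.8 and 37.2 in the libraries labelled Rxra-KO, where the 2 replicates lay on either side of both WT values. Its log2 fold change was -0.23 (95% interval -1.10 to 0.64, limma adjusted p = 0.954) and moved from -0.82 to 0.36 when 1 library at a time was left out. Both intervals included 0. That of *Aco1* reached past 0.6 above 0 and that of *Ireb2* past 0.6 on both sides, so that a difference large enough for a call was not excluded for either sensor.

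*Hmox1* encodes heme oxygenase 1, the inducible enzyme that opens the heme ring and frees its iron. Its normalised count was 59.8 and 61.3 in the 2 WT libraries, 178 in Rxra-KO replicate 1 and 127 in Rxra-KO replicate 2. The reads behind these values were 39, 56, 118 and 127. The WT libraries lay close together and both libraries labelled Rxra-KO lay above them. Means were 60.5 ± 1.05 and 153 ± 36.6 (SD, n = 2 each), a ratio of 2.52. On the log2 scale the difference was 1.30, standard error 0.29 (95% interval 0.73 to 1.87, limma adjusted p = 0.0011). The direction held without each library in turn (1.05 to 1.54), but without Rxra-KO replicate 1 the gene was not called (limma adjusted p = 0.323).

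*Blvrb* encodes biliverdin reductase B, which also acts as a flavin reductase. Its normalised counts were 114 and 162 in WT and 177 and 228 in the libraries labelled Rxra-KO, without overlap between groups. The log2 fold change of 0.56 (95% interval 0.05 to 1.07) had an unadjusted limma p of 0.0318 and an adjusted p of 0.401, so *Blvrb* was not called. Its partner *Blvra*, encoding the main biliverdin reductase, had 85.5 and 84.1 in WT and 123 and 177 in the libraries labelled Rxra-KO, a log2 difference of 0.79 that was not called either (limma adjusted p = 0.145). *Hmox2*, the constitutive heme oxygenase gene, overlapped between groups, at 160 and 276 reads (WT) against 219 and 288 in the libraries labelled Rxra-KO. Reads of *Hmox1* per 100 reads of *Hmox2* were 24.4 and 20.3 in WT and 53.9 and 44.1 in the libraries labelled Rxra-KO. Within the heme oxygenase pair the inducible gene thus took a higher share of reads in both libraries labelled Rxra-KO.

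**Figure D2:**
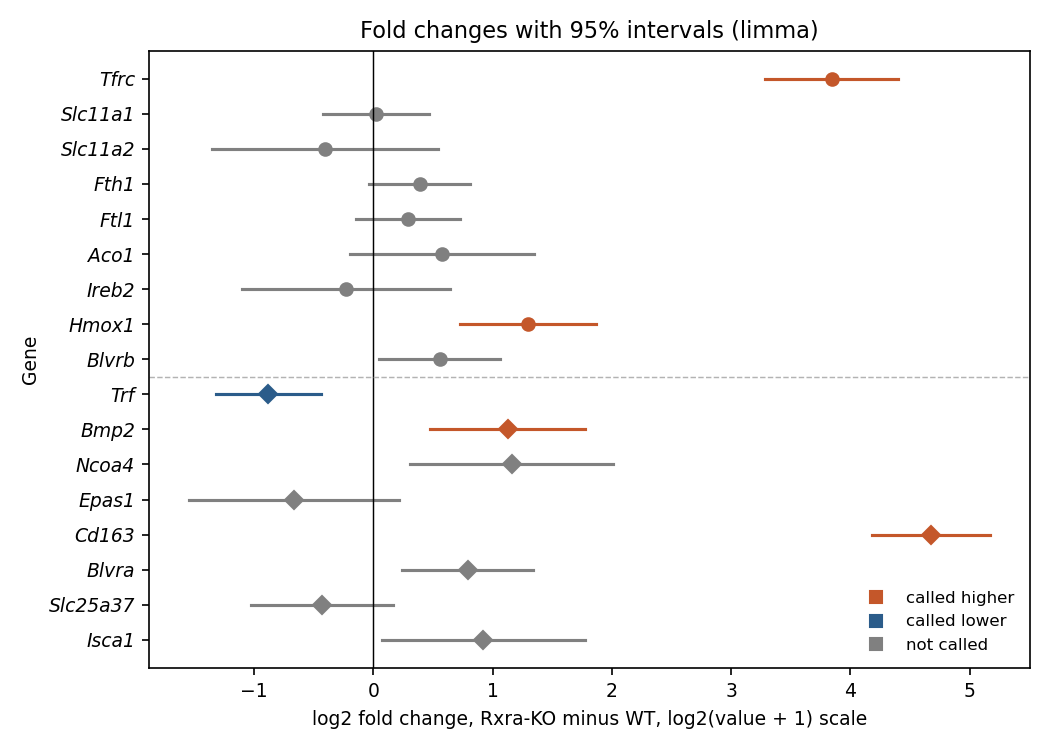
Log2 fold changes (libraries labelled Rxra-KO minus WT, log2(normalised count + 1) scale) with 95% limma intervals for the 9 genes (circles, above the dashed line) and 8 further iron and heme genes (diamonds), with called genes in colour. *Tfrc* (3.84), *Hmox1* (1.30), *Bmp2* (1.13) and *Cd163* (4.67) were called higher, *Trf* (-0.88) was called lower, and the intervals of *Slc11a1*, *Slc11a2*, *Fth1*, *Ftl1*, *Aco1* and *Ireb2* include 0.

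Levels of different genes were compared per kilobase of the longest protein-coding GENCODE transcript. In WT the order of the mean normalised count per kilobase was *Fth1* (634), *Ftl1* (486), *Slc11a1* (225), *Blvrb* (134) and *Hmox1* (38.6), and each of these neighbours was separated by more than the range of the 2 libraries. Below them *Aco1* (7.52), *Tfrc* (6.35), *Slc11a2* (5.69) and *Ireb2* (5.03) overlapped each with the next. In the libraries labelled Rxra-KO, *Fth1* (842) and *Ftl1* (593) again stood highest, and *Slc11a1* (234) overlapped with *Blvrb* (197). *Tfrc* reached 88.5 per kilobase there, a level that overlapped with that of *Hmox1* (97.2) and was apart from *Aco1* (11.4). *Ireb2* (4.60) and *Slc11a2* (4.21) were the lowest. The 2 ferritin chains were thus the most abundant of these mRNAs in both groups, with the caution on *Ftl1* above.

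To place the 9 genes in their pathway, 80 other iron and heme genes of the table were counted by role. Of these, 43 had a positive and 37 a negative log2 fold change, with a median of 0.08. The test called 3 of them (3.75%), against 2.29% of all genes. Of the 51 with a mean of at least 10 reads, 5.88% were called, against 4.6% of all genes at that depth. The groups did not overlap in 24 of the 80, with 12 above and 12 below WT, where 38.1% of all genes did not overlap. These shares rest on 3 called genes and stood close to those of all genes, and 29 of the 80 genes had fewer than 10 reads on average.

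Among 12 genes of iron uptake and reduction, 9 had a negative log2 fold change and 3 a positive one, against 51.1% positive among all genes. The groups did not overlap in 2 of the 12, against 38.1% of all genes, and 8 averaged fewer than 10 reads. The test called 1 of them (8.33%, against 2.29% of all genes). *Trf*, which encodes transferrin, the carrier that *Tfrc* binds, was abundant in these libraries, with 6231 and 4610 in WT and 3114 and 2719 in the libraries labelled Rxra-KO. Both of the latter lay below both WT values, and *Trf* fell with a log2 fold change of -0.88, a standard error of 0.22 and a WT level 1.86 times higher (limma adjusted p = 0.00661). Without WT replicate 1 the log2 fold change was -0.66 and the call was lost (limma adjusted p = 0.423). Reads of the receptor and of its carrier thus moved in opposite directions between the groups.

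The 9 genes of iron export and hormonal control had a median log2 fold change of 0.78, and 6 of them had fewer than 10 reads on average. *Bmp2*, a ligand of the bone morphogenetic protein family that promotes hepcidin expression in the liver, was called higher, with 41.6 and 38.5 in WT and 103 and 76.0 in the libraries labelled Rxra-KO (log2 fold change 1.13, standard error 0.33, limma adjusted p = 0.0352). The call of *Bmp2* was lost in 8 of 16 alternative analyses, among them each one that left out a library. The hepcidin genes *Hamp* and *Hamp2* were not analysed here.

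The 9 genes of heme uptake and transport included the largest change of the wider pathway. *Cd163*, the scavenger receptor for haemoglobin bound to haptoglobin, had 46.2 and 37.4 in WT and 1561 and 756 in the libraries labelled Rxra-KO. That was 30 and 34 reads against 1036 and 761, and the libraries labelled Rxra-KO differed from each other by about as much as the lower of them. *Cd163* was 27.7 times higher by the ratio of means (log2 fold change 4.67, standard error 0.25, limma adjusted p = 2.55e-44). It too was listed as raised by the study from the same libraries. *Hp*, encoding haptoglobin, overlapped between groups, with 251 reads in each WT library and 139 and 287 in the libraries labelled Rxra-KO. The lysosomal heme transporter gene *Slc48a1* had 143 and 168 in WT and 242 and 232 in the libraries labelled Rxra-KO, without overlap and without a call. *Lrp1*, which takes up heme bound to hemopexin, had 243 and 266 in WT and 172 and 217 in the libraries labelled Rxra-KO and was not called.

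No gene was called in the other 5 roles, which are ferritin turnover and chaperones, sensing, heme breakdown partners, heme synthesis and iron-sulfur cluster assembly. Only 2.29% of all genes were called, so the lack of calls in these short lists says little. *Ncoa4*, whose product delivers ferritin to the lysosome, had 8.33 and 43.9 in WT and 39.9 and 50.2 in the libraries labelled Rxra-KO, a difference of 1.16 on the log2 scale (limma adjusted p = 0.195). WT replicate 1 held 5 of its reads. Without that library the log2 fold change was 0.026, and without WT replicate 2 it was 2.29 (limma adjusted p = 0.00194). Of the 6 genes of sensing and transcription control, *Epas1*, encoding HIF-2α, had the smallest p, at a log2 difference of -0.67 (limma adjusted p = 0.692). *Bach1*, encoding the heme-sensing repressor of *Hmox1*, had 128 and 176 in WT and 132 and 237 in the libraries labelled Rxra-KO, with overlap. *Nfe2l2*, encoding the activator NRF2, had 305 and 341 against 371 and 367, without overlap and without a call.

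Heme synthesis and mitochondrial iron import held 15 genes with a median log2 fold change of -0.02, where 7 values were positive and 8 negative. The smallest p there belonged to *Slc25a37*, encoding the mitochondrial iron importer mitoferrin-1, at a log2 difference of -0.43 (limma adjusted p = 0.72). The 21 genes of iron-sulfur cluster assembly had a median of 0.06. Within that role *Isca1*, encoding an assembly factor, had 20.4 and 19.0 in WT and 35.4 and 41.2 in the libraries labelled Rxra-KO (log2 fold change 0.92, limma adjusted p = 0.414). Neither role had a gene that passed the test, and 6 genes of heme synthesis and 4 of cluster assembly averaged fewer than 10 reads.

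**Figure D3:**
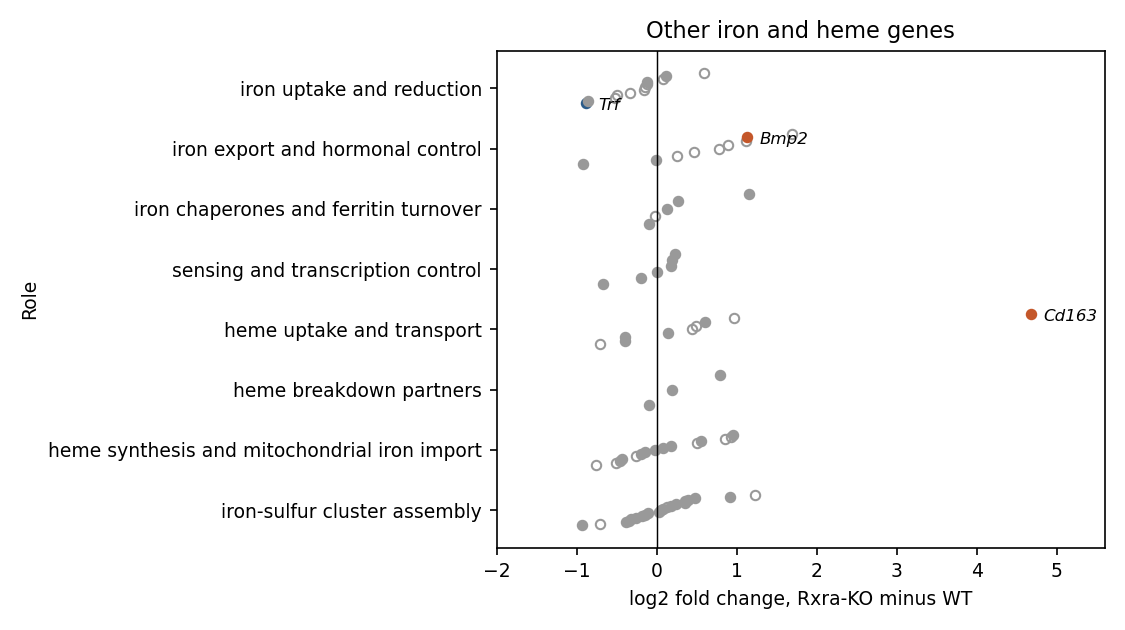
Log2 fold changes (libraries labelled Rxra-KO minus WT) of 80 other iron and heme genes, 1 point per gene, by role. Filled points have a mean of at least 10 reads and open points fewer, and the 3 called genes are in colour and named: *Trf* at -0.88, *Bmp2* at 1.13 and *Cd163* at 4.67, far from the other points of its role.

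Markers of the sorted cells also differed between the groups. Of 9 LPM markers, 7 were called lower under the Rxra-KO label, and *Timd4* and *Csf1r* were not called. Among all genes 0.969% were called lower, and 1.92% of those with a mean of at least 10 reads. The study itself named *Gata6* and *Icam2* as lowered in its RNA-seq of these cells, so their calls repeat that result. The summed normalised count of all 9 was 38072 and 40434 in WT and 19640 and 21860 in the libraries labelled Rxra-KO. *Prg4* made up most of each sum, at 28429 and 29683 in WT and 15129 and 16567 in the libraries labelled Rxra-KO. *Icam2*, which encodes the CD102 of the gate, was 1092 and 1301 against 466 and 539, and *Gata6*, the transcription factor of LPMs, was 53.7 and 71.1 against 5.27 and 24.3, so that none of the LPM markers was at 0 in any library. *Adgre1*, which encodes F4/80, was not analysed here. Of 10 markers of small peritoneal macrophages and monocyte-derived cells, 7 were called higher (against 1.32% of all genes) and *H2-Ab1* was called lower. Those 7 are the genes that the study itself named as raised from its RNA-seq of these cells, so their calls repeat that result. Of the markers outside that set, *Ly6c2* (log2 fold change -0.78) and *Cd226* (0.60) were not called. Sums of the 10 markers were 742 and 2596 in WT and 4497 and 6420 in the libraries labelled Rxra-KO. *H2-Ab1* made up most of the sum of WT replicate 2, and its groups overlapped (366 and 2484 in WT, 160 and 610 in the libraries labelled Rxra-KO). Without it, a sum taken after its values were seen, the other 9 markers came to 376 and 112 in WT and 4337 and 5810 in the libraries labelled Rxra-KO, so that WT replicate 1 was the higher of the WT pair. In neither WT library was a read of *Cd209d* or *Clec4b1* found (0 reads each). The part of these cells in the values of *Tfrc*, *Hmox1*, *Trf* and *Cd163* was not tested.

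Erythroid cells are rich in transferrin receptor and heme enzymes, so their markers were read beside *Tfrc*. Of 7 erythroid markers, 0 were called, where 2.29% of all genes were. Each had between 0 and 15 reads and 6 averaged fewer than 10, so 0 calls among them say little. Their sums were 52.2 and 42.9 in WT and 50.4 and 35.3 in the libraries labelled Rxra-KO. The globin genes were among 9 listed erythroid markers not analysed here. The part of erythroid cells in the value of *Tfrc* was not tested. Dividing cells also carry more transferrin receptor as a rule. Of 10 cell division genes, *Mki67*, *Top2a* and *Ccnb2* were called lower, where 0.969% of all genes were. The other 7 were not called, and 3 of the 10 log2 fold changes were positive. The study had reported lowered cell-cycle genes from the same RNA-seq. The sums were 665 and 1508 in WT and 337 and 276 in the libraries labelled Rxra-KO. *Mki67* carried much of them, and without it, again after its values were seen, the other 9 genes came to 248 and 566 in WT and 210.03 and 189 in the libraries labelled Rxra-KO. The part of cell division in the value of *Tfrc* was not tested. Single genes were called higher among 4 dendritic cell markers (*Cd209a*, 14, 13, 43 and 80 reads) and 3 T cell markers (*Cd2*, 0, 0, 11 and 6 reads). Among all genes 1.32% were called higher. None was called among 4 B cell, 1 neutrophil, 4 mesothelial and 3 mast cell markers, where 2.29% of all genes were called.

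The profile of *Tfrc* over the 4 libraries was compared with the 1405 genes whose mean was at least 100 reads, by Euclidean distance on log2(normalised count + 1) centred on each gene. The nearest were *Ccr2* (distance 0.51), *Mrc1* (0.85), *F13a1* (1.27), *Maf* (1.36) and *Retnla* (1.36). Their log2 fold changes were 3.46, 4.04, 4.06, 2.61 and 4.97 in the same order. *Ccr2*, a chemokine receptor of monocytes, had 76.5 and 25.5 in WT and 376 and 655 in the libraries labelled Rxra-KO. Its higher library in each group was the same as for *Tfrc*, and this order also held for *Retnla*. In *Mrc1* (1011 and 739), *F13a1* (2443 and 1621) and *Maf* (579 and 493), Rxra-KO replicate 1 was the higher of its pair. Such a distance rests mostly on the difference between groups, so strongly raised genes come out nearest to *Tfrc*. *Ccr2*, *Mrc1*, *Maf* and *Retnla* had fewer than 100 reads in each WT library, and passed the read minimum through the other group. With 4 libraries the likeness of these profiles is a description only. *Ccr2*, *Mrc1* and *Retnla* are among the markers of small peritoneal macrophages and monocyte-derived cells counted above.

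**Figure D4:**
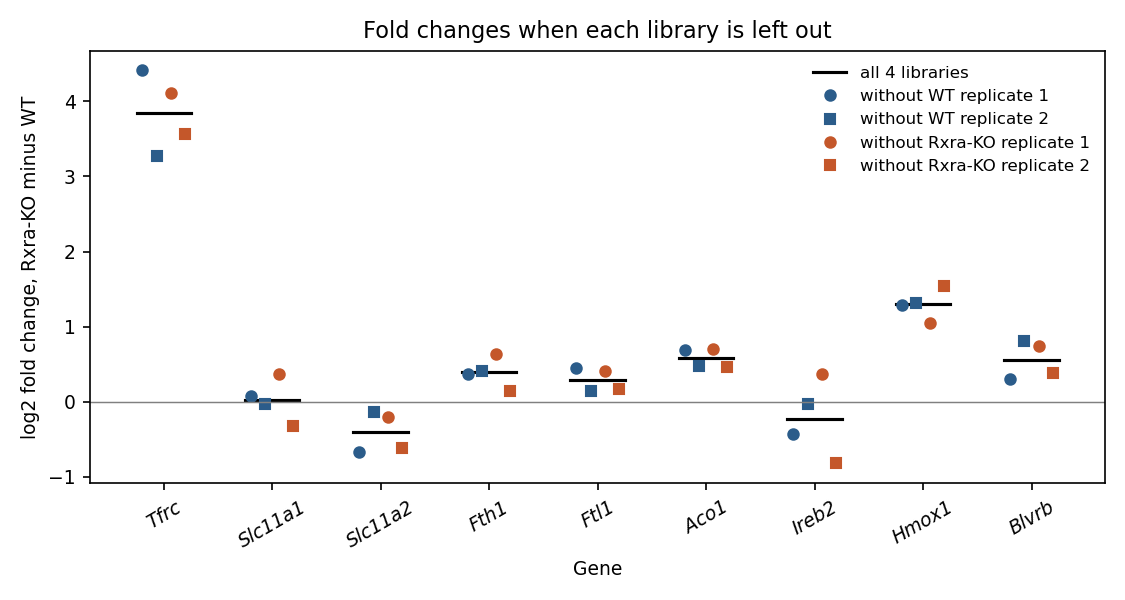
Log2 fold change of each of the 9 genes (libraries labelled Rxra-KO minus WT) with all 4 libraries (line) and with each library left out in turn (points, blue where a WT library was left out and orange where one labelled Rxra-KO was). *Tfrc* stays between 3.27 and 4.41 and *Hmox1* between 1.05 and 1.54, whereas *Slc11a1* and *Ireb2* cross 0.

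With 2 libraries against 2, the smallest two-sided p of an exact permutation test of 1 gene is 0.333, and the adjusted p-values depend on a variance that limma pools over genes (227 prior against 2 residual degrees of freedom). Without the mean-variance trend no gene of the 18364 was called by limma (1579 at an unadjusted p under 0.05), and the unadjusted p was 0.000377 for *Tfrc* and 0.0207 for *Hmox1*.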

How the data were processed

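Bulk RNA-seq was analysed in 4 libraries, with 2 for each label. Libraries were made with SMART-Seq v4 low-input chemistry, without molecular identifiers, and intervals therefore cover counting error only where they rest on reads. The authors deposited a normalised read signal, called here the normalised read count, equal to (reads + 0.5) divided by a TMM-scaled library size and put on the CPM scale. The submitters' processing notes name Kallisto 0.43.0, limma and GRCh38, a human build, for these mouse libraries, and the methods add tximport; the reference used was not settled, and the table holds symbols without coordinates. Whether counting used strand is not given in the sources used here, so reads of overlapping genes cannot be told apart, which touches *Slc11a2* (exons overlapping *Gm5475*) and *Ftl1* (*Gm10252* and *Gm22133*). Whole reads were recovered from 100% of the deposited signal values (tolerance 0.01 read). Sample columns outside the 4 libraries numbered 0.

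Tests used limma 3.58.1 (R 4.3.3) with an empirical Bayes trend on log2(value + 1), a scale that understates the change of low genes, on all 4 libraries and without covariates. A value of at least 1 in 2 libraries was required, which removed no gene. Alternatives were other pseudocounts, filters and scalings, edgeR 4.0.16, DESeq2 1.42.0, voom, a replicate block and leaving out each library. Replicates are 1 and 2 in the sample titles but carry other numbers in the table's columns, and the titles were followed. The text names the 10 listed genes, every called gene of the wider list, the gene with the smallest p of a role without a call, marker genes, and the 5 genes nearest to the member with the largest change. *Hmox2*, *Hp*, *Slc48a1*, *Lrp1*, *Bach1* and *Nfe2l2* were named after their values were seen, for their known roles beside these genes. Members and lists were chosen with earlier results of these data known. Gene positions and transcripts were taken from GENCODE M21 (GRCm38) and promoter windows from RefSeq (GRCm38.p6), matched by symbol. Each fitting script was tested on simulated data. Some items are not reported here.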

Additional observations from a re-analysis of the deposited data

How the results depend on the processing

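Of 272 log2 fold changes of single named genes recomputed under the alternatives, 252 kept the direction and the side of the threshold. Of the rest, 15 lost a call, 1 gained one and 4 reversed. Many of the 252 could not differ. The filter removed no gene, so the fit without it was the main fit. Dropping the trend or adding a replicate block left every log2 fold change as it was. Only called genes could lose a call, in 1 of 16 alternatives for *Tfrc*, 3 for *Hmox1*, 2 for *Trf*, 8 for *Bmp2* and 1 for *Cd163*. Both *Tfrc* and *Hmox1* were called in the main analysis. Without the mean-variance trend, 0 of the 9 listed genes, 0 of the wider pathway and 0 of all genes were called, against 2, 3 and 421. Leaving out 1 library at a time gave 1 to 2 of the listed genes (and 1 to 2 called higher), 2 to 3 of the wider pathway and 167 to 381 of all genes (167 without Rxra-KO replicate 1 and 240 without WT replicate 2), where the lone library of a group is assumed to vary like the other group. DESeq2 called 246 genes in all, and without independent filtering, an alternative chosen after seeing the data, 191 in all and 1 of the listed genes. *Hmox1* was the gene lost there (DESeq2 adjusted p = 0.0664, against 0.0208 with filtering), as it was without Rxra-KO replicate 1. Over all alternatives the adjusted p of *Tfrc* ran from 1e-46 to 0.299 and that of *Hmox1* from 0.000137 to 0.52, with the highest value in each case without the trend. *Slc11a1* turned to -0.00079 with DESeq2 size factors and ran from -0.32 to 0.37, and *Ireb2* from -0.82 to 0.36, when libraries were left out. The cause was not tested, beyond the fewer samples of those fits. Over the scalings the median log2 fold change of all genes ran from -0.00153 to 0.0401, against 0.0195 in the main analysis. Deviations of same-numbered replicates were nearly uncorrelated (r = 0.0635 across 8850 genes, which are not independent). With 2 libraries per group this cannot decide whether they shared a batch or litter. Both replicate 2 libraries held more reads (947372 in WT and 1047021 under the Rxra-KO label) than the replicate 1 libraries (652542 and 629030). With a replicate block 540 genes were called in all, with 2 of the listed genes and 3 of the wider pathway. DESeq2 gave no adjusted p for *Slc11a2*. Libraries of about 629030 to 1047021 reads limit the low genes most, among them *Slc11a2* and *Ireb2*, which had 10 reads in 1 library.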

Other observations

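RXR pairs with other nuclear receptors on repeats of the half-site AGGTCA, so promoter windows of the listed genes were read for these letters on either strand. The windows, taken from RefSeq (GRCm38.p6), span a start of transcription, most of each lying before it. AGGTCA stood in 1 of 10 windows of the listed genes, that of *Slc11a1*, and in 5340 of 32851 windows of all genes (16.26%). The repeat AGGTCANAGGTCA, which contains the half-site, stood in 0 of the 10 windows and in 13 of all windows (0.04%). A repeat this rare would seldom fall in so few windows, so its absence says nothing about the listed genes. *Tfrc*, *Fth1* and *Blvrb* had more than 1 window each. *Hmox1*, *Slc11a2* and *Slc40a1* were not searched. These are descriptions of letters in a short window, and nothing about binding follows from them.

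The iron-responsive element letters also matched transcripts of genes of the wider pathway, among them *Keap1*, *Alas2* and *Bola3*. *Alas2*, the erythroid form of the first enzyme of heme synthesis, had 1, 2, 1 and 12 reads in the 4 libraries. None of these 3 genes was called by limma.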
